A study of Mus musculus with 12 samples.

Results

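The expression of 10 genes of amino acid supply and the linked stress response was followed in mouse melanoma tumors. They were Gpt2, Asns, Psat1, Phgdh, Aldh18a1, Slc7a11, Chac1, Ddit3, Trib3 and Sesn2. These 10 genes were taken by name from the 23420 genes of the count table, as genes linked to the transcription factor ATF4. The set was selected on measured values, since Gpt2 was chosen by its lower counts after anti–PD-1 in obese mice. All 10 were among the 13095 genes that passed the filter on low counts. For this reason the comparison of anti–PD-1 with isotype in obese tumors, and any difference that contains it, is given as a description of the 10 genes without a test.

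The data were RNA-seq counts of 12 bulk tumors of B16-F10, a melanoma line of C57BL/6 origin, grown under the skin of male C57BL/6J mice. Obese mice had received a Western diet with 0.2% cholesterol for 15 weeks from 4 to 5 weeks of age, and nonobese mice a matching control diet. Once tumors were palpable, mice of both diets received anti–PD-1 (clone 29F.1A12) or the isotype control antibody (clone 2A3) at 10 mg/kg, 3 times a week, and tumors were taken on day 16. This gave 4 groups of 3 tumors, and all tumors came from 1 implanted cell line. Counts per tumor summed to between 14022929 and 33871843. The summed level of 8 melanocyte markers ranged from 26000 to 31900 CPM (counts relative to TMM-scaled library size) over all tumors, in keeping with the labelled line. Several other marker lists differed between the groups. All 6 tested T cell markers and 8 of 8 adipocyte markers passed an unadjusted P threshold of 0.05 in the higher direction in obese against nonobese anti–PD-1 tumors. Over all genes tested, 5.71% did. In bulk tissue, fewer cells of a type and less RNA per cell cannot be told apart.

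When amino acids run short, uncharged tRNA activates the kinase GCN2 (Eif2ak4), and when proteins misfold in the endoplasmic reticulum, PERK (Eif2ak3) is activated. Both phosphorylate the translation factor eIF2, which slows general protein synthesis but favors translation of ATF4. ATF4 then raises transcription of enzymes that make amino acids, of transporters that import them, and of regulators such as CHOP that act when stress persists. Tumor cells use this program to meet their demand for amino acids.

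Gpt2 encodes the mitochondrial alanine aminotransferase, which converts pyruvate and glutamate to alanine and α-ketoglutarate. It lies on chr8:85492576-85528902 (GRCm38.p6, plus strand). In nonobese mice, it was measured at 42.0, 36.2 and 30.7 CPM with isotype and at 45.8, 53.3 and 38.3 CPM with anti–PD-1. In obese mice, it was measured at 60.2, 54.1 and 48.8 CPM with isotype and at 29.8, 33.0 and 33.3 CPM with anti–PD-1. The 3 obese isotype tumors were thus each above the 3 obese anti–PD-1 tumors, and the obese anti–PD-1 tumors lay close together. By group mean ± SD (n = 3 each), the order was obese isotype at 54.4 ± 5.66 CPM, nonobese anti–PD-1 at 45.8 ± 7.54, nonobese isotype at 36.3 ± 5.66 and obese anti–PD-1 at 32.0 ± 1.97. Each group overlapped with its neighbor in this order.

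**Figure D1:**
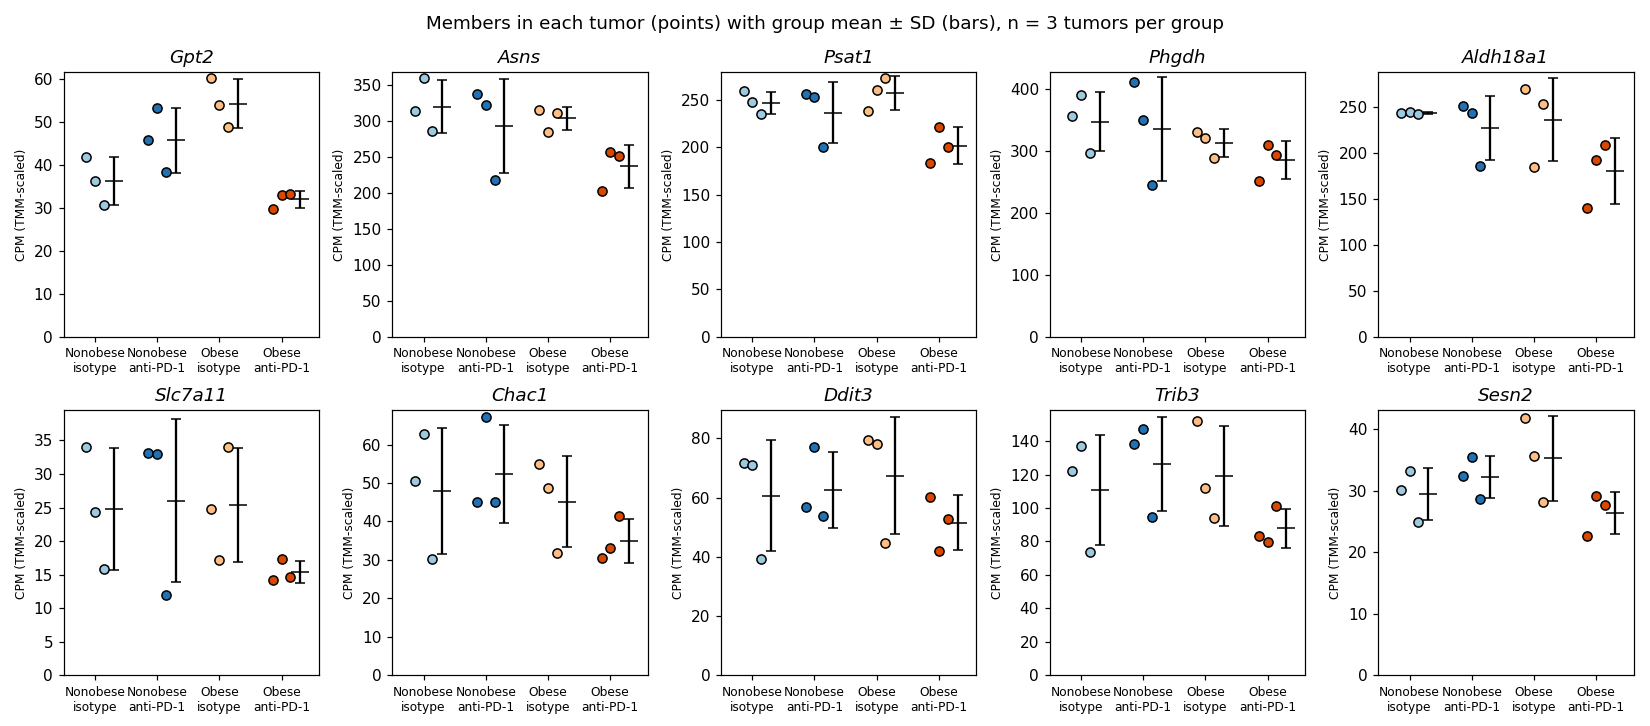
Levels of the 10 genes in CPM (y axes, from 0) in each of the 12 tumors, by group (x axes), with points for tumors and bars for the group mean ± SD (n = 3). Gpt2 ranged from 29.8 to 33.3 CPM in obese anti–PD-1 tumors and from 48.8 to 60.2 CPM in obese isotype tumors, and for all 10 genes the obese anti–PD-1 group had the lowest mean.

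The cytosolic counterpart Gpt, which catalyzes the same reaction, was measured from 13.5 to 17.3 CPM in 11 of the 12 tumors, and at 23.3 CPM in 1 obese isotype tumor. Its log2 difference between anti–PD-1 and isotype was −0.23 ± 0.18 (SE) in obese tumors and −0.06 ± 0.17 in nonobese tumors, and neither passed the P threshold (FDR = 0.81 and FDR = 0.976 by edgeR).

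Among the synthesis enzymes, Asns makes asparagine from aspartate and glutamine. It ranged from 286 to 360 CPM in nonobese isotype tumors, from 218 to 337 with anti–PD-1, from 285 to 315 in obese isotype tumors and from 202 to 256 with anti–PD-1. Psat1, which catalyzes the second step of serine synthesis, was measured at 259, 247 and 235 CPM in nonobese isotype tumors and at 256, 253 and 200 CPM with anti–PD-1. In obese mice Psat1 was at 238, 260 and 273 CPM with isotype and at 183, 221 and 200 CPM with anti–PD-1. For Asns and Psat1, as for Gpt2, no obese anti–PD-1 tumor reached the lowest obese isotype tumor. Phgdh, the first enzyme of serine synthesis, and Aldh18a1, which begins proline synthesis from glutamate, overlapped between those groups. Phgdh ranged from 288 to 330 CPM in obese isotype and from 252 to 310 CPM in obese anti–PD-1 tumors. Aldh18a1 was at 269, 184 and 253 CPM in obese isotype and at 140, 192 and 208 CPM in obese anti–PD-1 tumors. A processed pseudogene of Phgdh is annotated, so its count could hold reads of that copy.

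Slc7a11 is the cystine–glutamate exchanger that brings in cystine for glutathione, and Chac1 is an enzyme that degrades glutathione. Slc7a11 varied widely within 3 of the groups, from 15.8 to 34.1 CPM in nonobese isotype, from 12 to 33.1 in nonobese anti–PD-1 and from 17.1 to 34.0 in obese isotype tumors. It was at 14.2, 17.3 and 14.7 CPM in obese anti–PD-1 tumors. Chac1 was at 45.0, 67.1 and 45.0 CPM in nonobese anti–PD-1 tumors and at 30.5, 33.1 and 41.4 CPM in obese anti–PD-1 tumors, 2 groups that did not overlap. In isotype tumors Chac1 ranged from 30.3 to 62.8 CPM in nonobese and from 31.9 to 55.0 CPM in obese mice.

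Ddit3 encodes CHOP, a transcription factor of prolonged stress. Trib3 is a pseudokinase induced by ATF4 and CHOP that restrains both, and Sesn2 is a stress-induced protein that restrains mTORC1 when leucine is scarce. Trib3 was at 122, 137 and 73.6 CPM in nonobese isotype, 138, 147 and 94.4 in nonobese anti–PD-1, 152, 112 and 93.7 in obese isotype and 83.1, 79.4 and 101 in obese anti–PD-1 tumors. Sesn2 was at 41.9, 35.7 and 28.2 CPM in obese isotype and at 22.6, 29.1 and 27.7 CPM in obese anti–PD-1 tumors. Ddit3 was at 79.5, 78.1 and 44.6 CPM in obese isotype and at 60.1, 41.9 and 52.6 CPM in obese anti–PD-1 tumors. For these 3 regulators, the ranges of the 2 obese groups overlapped, and obese isotype replicate 3 was lower than the other 2 tumors of its group. Exons of Ddit3 overlap those of Mars on the opposite strand by at most 68 bases. Whether reads were counted by strand is not given in the sources used here.

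Per kilobase of annotated exon, Phgdh and Asns had the highest group means of the 10 genes, at 115 to 140 and 86.5 to 117 CPM per kb. Slc7a11 had the lowest, at 1.11 to 1.87 CPM per kb. Gpt2, at 5.67 to 9.63, and Sesn2, at 7.61 to 10.2 CPM per kb, were the next lowest. The group differences below thus concern both abundant and scarce transcripts.

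The promoters of these genes were searched for the letters TGATGNAA on either strand, which contain the C/EBP-ATF response element bound by ATF4 with C/EBP partners. RefSeq windows (GRCm38.p6) of 250 bases before to 50 bases after the start were found for all 10 genes. The motif was present in 4 of the 10 genes, which were Asns, Chac1, Slc7a11 and Trib3, compared with 3.97% of all 32851 windows. With the stricter letters TGATGCAA, which are a subset of the first, it was present in 2 of the 10 genes, Chac1 and Slc7a11, compared with 0.895% of all windows. The matches are given 5′ to 3′ on the gene's strand, with matches in capitals. A match on the opposite strand reads as its reverse complement, and Slc7a11 holds a match on each strand.
Asns: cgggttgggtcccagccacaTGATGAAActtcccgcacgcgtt
Chac1: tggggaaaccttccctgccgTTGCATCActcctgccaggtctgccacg
Slc7a11: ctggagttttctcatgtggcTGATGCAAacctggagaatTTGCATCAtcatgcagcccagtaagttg
Trib3: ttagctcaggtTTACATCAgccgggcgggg
These stretches lie at chr6:7693210-7693252 (minus strand), chr2:119351029-119351076 (plus), chr3:50443633-50443699 (minus, inside the full annotated span of the gene) and chr2:152344028-152344057 (minus). The first base of the match was 23 bases before the start in Asns, 193 in Chac1, and 66 and 47 in Slc7a11, and it was base 15 after the start in Trib3. In Gpt2 the letters were not in the window, whose 120 bases before the start (chr8:85492456-85492575, plus strand) read as follows, since Gpt2 is the gene the selection rested on.
Gpt2: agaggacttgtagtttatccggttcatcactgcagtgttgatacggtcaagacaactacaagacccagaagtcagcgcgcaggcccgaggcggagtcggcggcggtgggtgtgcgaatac
Psat1, Phgdh, Aldh18a1, Ddit3 and Sesn2 likewise had no match in these windows. Among 43 other genes of the pathway that had a window, 15 (34.9%) held TGATGNAA and 13 held TGATGCAA. These matches describe letters in the reference and do not show that a factor was bound.

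The first comparison asked whether anti–PD-1 changed these genes in nonobese mice, a contrast that shares no tumor with the selection of Gpt2. Gpt2 was higher by 0.33 ± 0.14 on the log2 scale (SE, n = 3 and 3), with an unadjusted P of 0.037 and an FDR of 0.924 by edgeR's quasi-likelihood test with Benjamini-Hochberg adjustment. The 3 nonobese anti–PD-1 tumors overlapped with the isotype tumors, at 38.3 to 53.3 against 30.7 to 42.0 CPM. This call was lost without nonobese isotype replicate 2 or 3, where the log2 difference was 0.33 and 0.23, and without nonobese anti–PD-1 replicate 1 or 2, where it was at 0.33 and 0.21. None of the other 9 genes passed the threshold. Their log2 differences ran from −0.13 ± 0.16 for Asns to 0.19 ± 0.23 for Trib3, and the lowest P was 0.423. Over all genes tested, 1.64% passed P in the higher and 3.59% in the lower direction, against 1 of the 10 members, a count of a single gene. In none of the 10 genes were the 2 groups free of overlap, compared with 11.2% of all genes. No gene passed an FDR of 0.05 (0% of all genes tested), while 685 passed the unadjusted threshold and 9 genes passed the FDR with DESeq2. That 0 became 2 without nonobese isotype replicate 1.

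The second comparison set obese against nonobese tumors, averaged over both treatments. It uses the obese tumors that chose Gpt2, which is therefore described only, at 0.03 ± 0.10 on the log2 scale. The other 9 genes all had lower values in obese tumors, with a median of −0.19 against 0.00182 over all genes, but none passed the threshold. Chac1 was nearest, at −0.34 ± 0.18 with an unadjusted P of 0.0893 and FDR = 0.553. Slc7a11 was at −0.36 ± 0.25, Trib3 at −0.21 ± 0.16, and Asns and Phgdh both at −0.19 with SE of 0.11 and 0.12. Without single tumors, Chac1 ran from −0.461 to −0.218, Slc7a11 from −0.526 to −0.212, Trib3 from −0.328 to −0.126 and Phgdh from −0.275 to −0.112. Over all genes, 5.21% passed P as higher and 5.19% as lower in obese tumors, and 24 genes (0.183%) passed the FDR, a count that ran from 9 to 37 when single tumors were left out and was 172 with DESeq2. The count past P, 0 of these 9, became 3 without nonobese anti–PD-1 replicate 3, 2 without nonobese isotype replicate 3 and 1 without obese isotype replicate 1.

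In isotype-treated tumors, none of the 9 members other than Gpt2 passed the threshold between obese and nonobese mice. Their log2 differences ran from −0.15 ± 0.17 for Phgdh to 0.26 ± 0.16 for Sesn2, which had the lowest P, 0.132, and FDR = 0.493. With obese isotype replicate 3 left out, 1 of the 9 passed. Over all genes, 7.11% passed P as higher and 6.17% as lower. Gpt2 shares the obese isotype tumors with its selection and is described only. It was 0.58 ± 0.14 higher on the log2 scale in obese tumors, and its obese tumors (48.8 to 60.2 CPM) all exceeded the nonobese ones (30.7 to 42.0 CPM), as was the case for 10.4% of all genes. None of the genes tested passed the FDR (0%), while 1739 passed the unadjusted threshold and 200 passed the FDR with DESeq2. That 0 became 3 without nonobese anti–PD-1 replicate 3 and 1 without obese isotype replicate 1.

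In anti–PD-1–treated tumors, all 10 genes were lower in obese than in nonobese mice. This comparison shares the obese anti–PD-1 tumors with the selection of Gpt2, and only the other 9 genes were tested. Chac1 was lower by a log2 difference of −0.58 ± 0.26 and Trib3 by −0.52 ± 0.23, both with an unadjusted P of 0.0427 and an FDR of 0.462. Slc7a11 was at −0.75 ± 0.36 (FDR = 0.508), Psat1 at −0.23 ± 0.12 (FDR = 0.534), Aldh18a1 at −0.33 ± 0.17 (FDR = 0.538) and Asns at −0.30 ± 0.16 (FDR = 0.548). Thus 2 of the 9 passed the unadjusted threshold, while 4.56% of all genes passed in the lower and 5.71% in the higher direction. Since the tumors are shared with the selection and the set was chosen with results of these data known, this count is a description and supports nothing about the set. The median of the 9 genes was −0.30, against −0.01 over all genes. Gpt2, as a description, was at −0.52 ± 0.14. Obese and nonobese tumors did not overlap for Gpt2 and Chac1, compared with 7.06% of all genes in this direction. Over all genes, 50 (0.382%) passed the FDR, and none of the 9 did. Over the refits without single tumors that count ran from 2, without nonobese anti–PD-1 replicate 2, to 214, without obese anti–PD-1 replicate 1, and it was 270 with DESeq2, 87 with the current glmQLFit and 0 with only the groups compared. With all tumors, no member reached a fold change of 2 in this or any other comparison of 2 groups.

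These calls depended on single tumors. Chac1 lost its call without nonobese anti–PD-1 replicate 2 (log2 difference −0.36), obese anti–PD-1 replicate 1 (−0.48) or 2 (−0.54). Trib3 lost it without nonobese anti–PD-1 replicate 1 (−0.46) or 2 (−0.40) and obese anti–PD-1 replicate 1 (−0.48) or 2 (−0.46). These losses are for tumors of the 2 groups compared. Without obese isotype replicate 2, a tumor outside those groups, 1 of the 9 passed rather than 2. Without nonobese anti–PD-1 replicate 3, the tumor with the lowest Asns, Psat1, Phgdh, Aldh18a1 and Slc7a11 of its group, 7 of the 9 passed. In every one of the 12 refits that left out a tumor, all 10 genes had negative values, but their sizes moved. Without nonobese anti–PD-1 replicate 1, Asns was at −0.188 and Phgdh at −0.0594, and without replicate 2 of that group Ddit3 was at −0.102. Without obese anti–PD-1 replicate 1, Aldh18a1 was at −0.173 and Sesn2 at −0.176. Slc7a11 ran from −1.08, a fold above 2, without nonobese anti–PD-1 replicate 3 to −0.543.

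**Figure D2:**
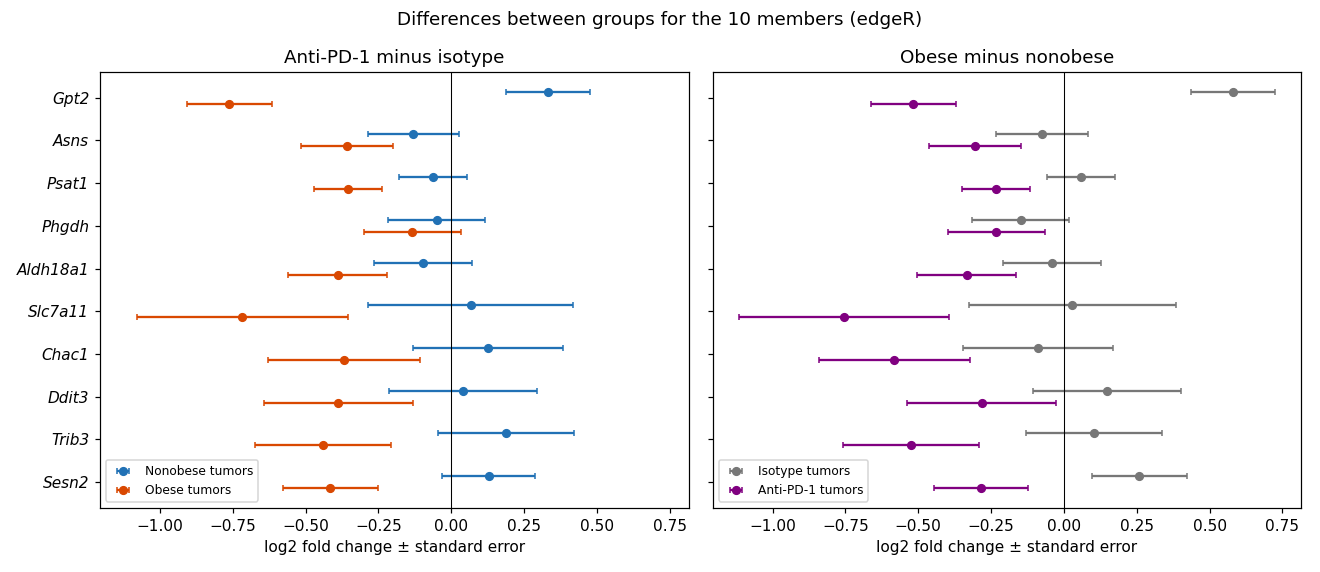
Log2 fold changes (x axes, points) with standard errors (bars) of the 10 genes from edgeR, for anti–PD-1 minus isotype in each diet (left) and obese minus nonobese in each treatment (right). All 10 points lie below 0 for obese tumors on the left, from −0.76 to −0.13, and for anti–PD-1 tumors on the right, from −0.75 to −0.23, while the nonobese points on the left run from −0.13 to 0.33.

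In obese mice, the comparison that chose Gpt2, all 10 genes had lower means with anti–PD-1 than with isotype. Gpt2 had a log2 difference of −0.76 ± 0.15, or a fold of 0.589. Slc7a11 followed at −0.72 ± 0.36, and 7 genes lay between −0.44 and −0.35. These were Trib3 at −0.44 ± 0.23, Sesn2 at −0.41 ± 0.16, Aldh18a1 at −0.39 ± 0.17, Ddit3 at −0.39 ± 0.26, Chac1 at −0.37 ± 0.26, Asns at −0.36 ± 0.16 and Psat1 at −0.35 ± 0.12. Phgdh was the smallest, at −0.13 ± 0.17. Single tumors moved most of these values by over 1.5 times. Without obese isotype replicate 1, Trib3 was at −0.205, Chac1 at −0.177, Ddit3 at −0.233 and Sesn2 at −0.25. Without obese anti–PD-1 replicate 1, Aldh18a1 was at −0.217, Asns at −0.237 and Phgdh at −0.0299, and without obese isotype replicate 3, Slc7a11 was at −0.432. Gpt2 ran from −0.82 to −0.664 over these refits and Psat1 from −0.417 to −0.266. The median was −0.39, against −0.01 over all genes. The groups did not overlap for Gpt2, Asns and Psat1, and 7% of all genes had no overlap in this direction. Over all genes, 4.3% passed P as higher and 3.27% as lower, and none passed the FDR (0%) while 991 passed the unadjusted threshold and 105 passed the FDR with DESeq2. That count of 0 became 76 without obese anti–PD-1 replicate 1. These background values are given for scale, and nothing is read from the members' count because the contrast was used to choose them.

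The difference between the obese and the nonobese response was likewise described without a test. It was −1.10 ± 0.21 on the log2 scale for Gpt2, −0.78 ± 0.51 for Slc7a11, −0.63 ± 0.33 for Trib3 and −0.54 ± 0.23 for Sesn2. For the serine enzymes Psat1 and Phgdh it was −0.29 ± 0.17 and −0.08 ± 0.24. Chac1 was at −0.49 ± 0.37, and for Phgdh the difference was smaller than its standard error. Without single tumors, Phgdh ran from −0.234 to 0.105, the positive value without nonobese anti–PD-1 replicate 1. Chac1 ran to −0.24 and Ddit3 to −0.184 without nonobese isotype replicate 3, Trib3 to −0.391 without obese isotype replicate 1 and Slc7a11 to −0.496 without obese isotype replicate 3, while Gpt2 stayed between −1.22 and −0.972. Over all genes, 7.01% passed P as higher and 5.87% as lower for this difference. No gene passed the FDR (0%), while 1687 passed the unadjusted threshold and 283 passed the FDR with DESeq2. That 0 became 197 without obese anti–PD-1 replicate 1, 111 without nonobese isotype replicate 1 and 37 without nonobese anti–PD-1 replicate 3.

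The correlations between the 10 genes are a description over 12 tumors that share libraries and groups. The Pearson correlation of log2 CPM was positive in 45 of 45 pairs, with a median of 0.642 and a range from 0.0999 to 0.897, while 49.6% of all gene pairs were positive, with a median of −0.00434. On deviations from the group means, which remove the group differences, 43 of 45 pairs were positive with a median of 0.637, against 49.8% of all gene pairs with a median of −0.00297. Chac1 with Trib3 had the highest value, at 0.897, and Ddit3 with Aldh18a1 the lowest. Without the 2 tumors farthest from the median of the first gene, single pairs moved in both directions, from 0.688 to 0.353 for Psat1 with Phgdh and from 0.61 to 0.852 for Phgdh with Chac1. Gpt2 was closest to Sesn2 (0.848) and then to Trib3 (0.73), and least like Phgdh (0.40).

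**Figure D3:**
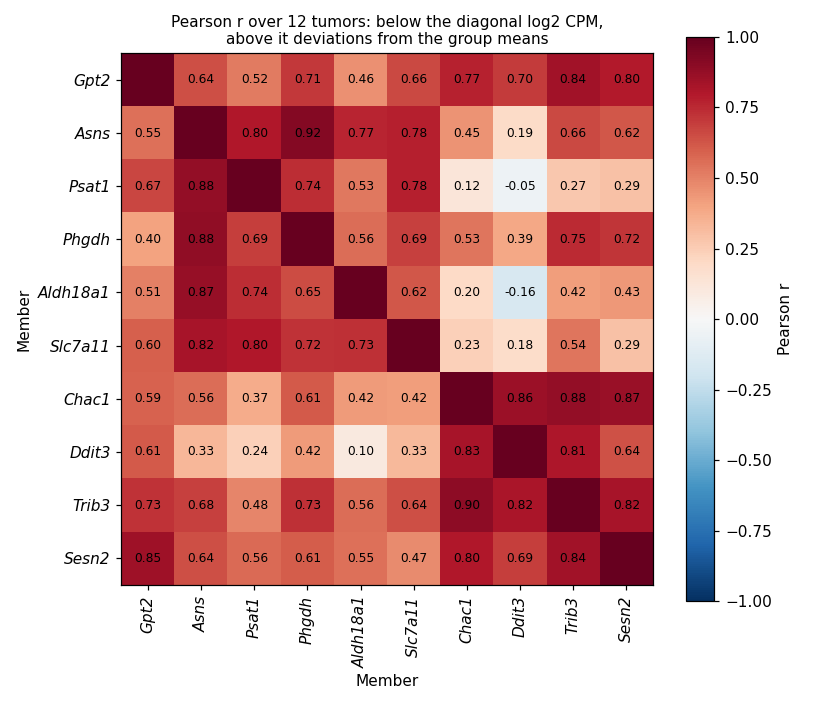
Pearson correlations between the 10 genes (rows and columns) over 12 tumors, of log2 CPM below the diagonal and of deviations from the 4 group means above it (color scale from −1 to 1). Values below the diagonal are all positive and highest for Chac1 with Trib3, at 0.90, and 2 of the 45 values above the diagonal are negative.

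Of the 13094 other genes tested, the 5 whose log2 CPM correlated most with Gpt2 were Zfp597 (r = 0.93), Herpud1 (0.92), Ctage5 (0.908), Fgf21 (0.908) and Mthfd2 (0.906). Of these 5, Herpud1, Fgf21 and Mthfd2 stood on the lists of pathway genes, which held 54 tested genes other than the members. The ranking used all tumors, including the obese tumors whose difference chose Gpt2, so genes that share that difference tend to rank high. The lists were chosen with results of these data known, so this overlap is a description and supports nothing about the pathway. Herpud1 takes part in degradation of misfolded proteins of the endoplasmic reticulum, Fgf21 is a secreted hormone induced by nutrient stress, and Mthfd2 is a mitochondrial enzyme of the folate cycle. Among the members, Sesn2 ranked 18 and Trib3 ranked 144 in this order, while Asns ranked 732, Aldh18a1 962 and Phgdh 1806. Fgf21 was scarce, with 9 to 349 counts per tumor. It ranged from 4.30 to 13.3 CPM in obese isotype and from 0.635 to 3.15 CPM in obese anti–PD-1 tumors. On deviations from the group means, the correlation with Gpt2 was 0.676 for Zfp597, 0.854 for Herpud1, 0.637 for Ctage5, 0.863 for Fgf21 and 0.801 for Mthfd2, below the first value in each. The promoter windows of Fgf21 and Herpud1 hold TGATGCAA on the opposite strand. The stretches, at chr7:45615602-45615649 (minus strand) and chr8:94386297-94386344 (plus strand), are shown for comparison with those of Chac1 and Slc7a11.
Fgf21: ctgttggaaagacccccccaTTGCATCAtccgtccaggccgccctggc
Herpud1: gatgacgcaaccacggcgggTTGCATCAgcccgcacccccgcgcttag

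Atf4, whose product defines the pathway, was measured at 308, 324 and 207 CPM in nonobese isotype and at 259, 366 and 353 CPM in nonobese anti–PD-1 tumors. In obese mice it was at 447, 422 and 264 CPM with isotype and at 246, 197 and 246 CPM with anti–PD-1. Each obese anti–PD-1 tumor was thus below each obese isotype tumor, as for Gpt2. The log2 difference was −0.72 ± 0.21 (FDR = 0.335), and −0.50 ± 0.21 (FDR = 0.422) against nonobese anti–PD-1 tumors by edgeR, and both passed the unadjusted threshold. The second call was lost without nonobese anti–PD-1 replicate 2 or 3 or obese anti–PD-1 replicate 2, while its log2 difference ran from −0.65 to −0.41 over all 19 alternatives. ATF4 is controlled largely at translation, which RNA counts do not measure.

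The 6 lists of the pathway held 56 further genes, of which 54 were tested and none is a member. With anti–PD-1 in nonobese mice, 2 of the 54 were higher and 0 lower at the P threshold, against 1.64% and 3.59% of all genes. In obese against nonobese isotype tumors 4 were higher and 0 lower, against 7.11% and 6.17%. Averaged over treatments 2 were higher and 6 (11.1%) lower, against 5.21% and 5.19%. In obese against nonobese anti–PD-1 tumors, 15 of the 54 (27.8%) were lower and 0 higher, with a median of −0.17. With anti–PD-1 in obese mice, 14 (25.9%) were lower and 0 higher, with a median of −0.19. For the difference between responses, 11 (20.4%) were lower and 0 higher. Over all genes, the lower shares in these last 3 comparisons were 4.56%, 3.27% and 5.87%. All 3 share the obese anti–PD-1 tumors with the choice of Gpt2, and the lists were chosen with results of these data known, so these counts, and those of single lists, are a description and support nothing about the pathway.

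Single tumors moved these counts by over 1.5 times. The 2 higher genes in nonobese mice became 0 without nonobese isotype replicate 3, 1 without nonobese anti–PD-1 replicate 2 and 4 without replicate 3 of that group. In isotype tumors, the 4 higher genes became 2 without nonobese isotype replicate 3 and 7 without obese isotype replicate 3, and the 0 lower genes became 5 without obese isotype replicate 1 and 1 without nonobese anti–PD-1 replicate 1 or 3. The 15 genes became 9 without nonobese anti–PD-1 replicate 1, 7 without replicate 2 of that group and 8 without obese anti–PD-1 replicate 2. The 14 genes became 8 without obese isotype replicate 1 and 9 without obese anti–PD-1 replicate 1. The 11 genes became 19 without nonobese anti–PD-1 replicate 3. The 6 genes lower on average over treatments became 3 without nonobese isotype replicate 1 or 2 or nonobese anti–PD-1 replicate 2, 11 without obese isotype replicate 1 and 13 without nonobese anti–PD-1 replicate 3. The 2 genes higher on average became 1 without nonobese isotype replicate 3, obese isotype replicate 2 or obese anti–PD-1 replicate 2. Without nonobese anti–PD-1 replicate 1 they became 3, and the 0 lower genes in nonobese mice became 1.

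Of 8 genes of the eIF2 kinases and eIF2 control, Eif2ak3 and the phosphatase subunit Ppp1r15b (−0.31 ± 0.13, FDR = 0.422) were lower in obese against nonobese anti–PD-1 tumors. Of the 4 kinases, only Eif2ak3 (PERK) passed the P threshold in any comparison. It was at 61.8 to 66.5 CPM in obese isotype and at 43.8 to 50.8 CPM in obese anti–PD-1 tumors, a log2 difference of −0.44 ± 0.13 (FDR = 0.331). Against nonobese anti–PD-1 tumors it was at −0.40 ± 0.13 (FDR = 0.26), and both calls held in all 19 alternatives. The call of Ppp1r15b held in 13 of 19, and the count of 2 became 1 without replicate 2 or 3 of either anti–PD-1 group. Eif2ak4 (GCN2) was at 0.00 ± 0.17 with anti–PD-1 in obese mice and 0.04 ± 0.17 in nonobese mice. With anti–PD-1 in obese mice, Eif2ak2, the kinase PKR of antiviral responses, was at 0.25 ± 0.15 (FDR = 0.711), and Eif2ak1, the heme-regulated kinase, at 0.04 ± 0.09.

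Among 6 transcription factors, 4, Atf4 included, were lower in obese against nonobese anti–PD-1 tumors, where 4.56% of all genes were. Cebpg, a partner of ATF4 in binding the C/EBP-ATF element, was at −0.69 ± 0.16 (FDR = 0.108) and passed the P threshold in all 19 alternatives. Atf5 was at −0.63 ± 0.26 and Nupr1 at −0.74 ± 0.33, calls that held in 14 and 7 of 19 alternatives. The count of 4 became 2 without nonobese or obese anti–PD-1 replicate 1 and 1 without replicate 2 of either group. Atf3, a stress-induced transcription factor, was higher, at 0.64 ± 0.18 in obese against nonobese isotype tumors (FDR = 0.223).

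Among 10 further enzymes of amino acid and one-carbon synthesis, 5 were lower in the same comparison. Cth, which makes cysteine from cystathionine, was at 14.5 to 17.9 CPM in nonobese and at 6.75 to 8.46 CPM in obese anti–PD-1 tumors. Its log2 difference of −1.09 ± 0.21 had an FDR of 0.0447, and Cth alone of the 54 genes passed the FDR. It passed in 7 of 19 alternatives, whose FDR ran from 0.000323 to 0.272, with the highest value without nonobese anti–PD-1 replicate 2. Pck2, the mitochondrial phosphoenolpyruvate carboxykinase, was at −0.81 ± 0.19 (FDR = 0.0985). Psph, the last enzyme of serine synthesis, was at −0.40 ± 0.15, Aldh1l2 at −0.62 ± 0.23 and Mthfd2 at −0.31 ± 0.14, and the call of Mthfd2 held in 5 of 19 alternatives. The count of 5 became 2 without nonobese anti–PD-1 replicate 1, and 3 without replicate 2 of either anti–PD-1 group.

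Among 8 tested transporters, only the glycine transporter Slc6a9 was lower, at −0.71 ± 0.27 (FDR = 0.368), in obese against nonobese anti–PD-1 tumors. That count of 1 became 0 without nonobese anti–PD-1 replicate 1 or 2 or obese anti–PD-1 replicate 1, and 2 without nonobese anti–PD-1 replicate 3. Slc3a2, the heavy chain that pairs with Slc7a11 and Slc7a5, was at −0.06 ± 0.13 there and at −0.04 ± 0.13 with anti–PD-1 in obese mice. Of 12 cytosolic tRNA synthetases, Cars alone was lower in obese mice given anti–PD-1 rather than isotype, at −0.36 ± 0.13 (FDR = 0.486), and 0 of 12 passed P in obese against nonobese anti–PD-1 tumors. Over all genes, 3.27% and 4.56% were lower in those comparisons, so counts of 0 or 1 in lists of this size are near the background. Their medians in those comparisons were −0.17 and −0.12. The call of Cars was lost without obese isotype replicate 1 or obese anti–PD-1 replicate 1. The count of 0 became 4 without nonobese anti–PD-1 replicate 3 and 1 without obese anti–PD-1 replicate 3.

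Of 10 tested other targets of ATF4 and CHOP, 3 were lower in obese against nonobese anti–PD-1 tumors. These were Fgf21 at −1.91 ± 0.59 (FDR = 0.226), Vldlr, a lipoprotein receptor, at −0.86 ± 0.30 (FDR = 0.32) and Herpud1 at −0.39 ± 0.13 (FDR = 0.255). The count of 3 became 5 without replicate 3 of either nonobese group. Jdp2, a repressor of the AP-1 family, was higher by 0.63 ± 0.14 in obese against nonobese isotype tumors (FDR = 0.141) and by 0.37 ± 0.14 with anti–PD-1 in nonobese mice (FDR = 0.859), and lower by a log2 difference of −0.38 ± 0.14 with anti–PD-1 in obese mice (FDR = 0.521). These 3 calls held in 19, 17 and 15 of 19 alternatives.

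**Figure D4:**
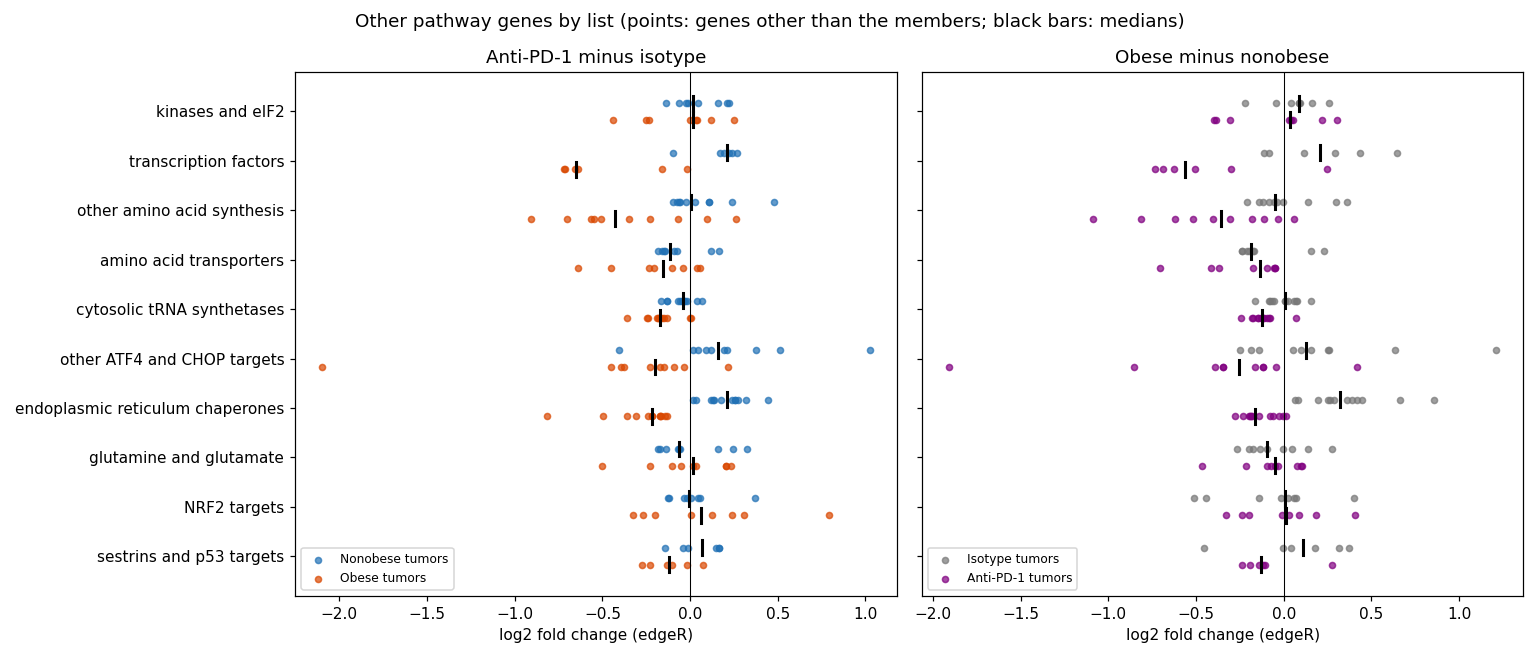
Log2 fold changes (x axes) of genes other than the members, by list (y axis), for anti–PD-1 minus isotype in each diet (left) and obese minus nonobese in each treatment (right), with points for genes and black bars for medians. The medians of the transcription factors were −0.65 with anti–PD-1 in obese and 0.21 in nonobese mice.

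Neighboring pathways were described by lists of their own. Of 12 chaperones and helpers of the endoplasmic reticulum, a branch of the stress response controlled by ATF6 and XBP1, 8 were higher in obese against nonobese isotype tumors, with a median of 0.32, where 7.11% of all genes were higher. Dnajb9, a co-chaperone, was at 26.6 to 31.0 CPM in obese and 13.3 to 20.4 CPM in nonobese isotype tumors, a difference of 0.86 ± 0.18 (FDR = 0.125). Sdf2l1 was at 0.66 ± 0.19, Pdia6 at 0.44 ± 0.13 and Edem1 at 0.42 ± 0.12. The count of 8 became 4 without nonobese isotype replicate 2, and 5 without obese isotype replicate 2 or 3. With anti–PD-1 in obese mice, where 3.27% of all genes were lower, 4 were lower, which were Dnajb9 (−0.82 ± 0.18), Sdf2l1 (−0.50 ± 0.19), Edem1 (−0.36 ± 0.12) and the major chaperone Hspa5 (−0.31 ± 0.12). That count became 1 without obese anti–PD-1 replicate 3. In obese against nonobese anti–PD-1 tumors 0 of 12 passed P.

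Among genes of glutamine and glutamate use, Glul, which makes glutamine, was higher by 0.23 ± 0.11 on the log2 scale (FDR = 0.654) in obese tumors given anti–PD-1 rather than isotype. That call held in 11 of 19 alternatives. None of 9 targets of NRF2, a list that holds Slc7a11, passed P in any of the 6 comparisons, and none of 6 sestrins and p53 targets did.

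Markers of other cell types moved in the same tumors as the pathway genes. The summed level of 7 detected T cell markers was 4.16 to 13.6 CPM in obese anti–PD-1 tumors, against 1.26 to 2.10 in obese isotype and 0.457 to 1.67 in nonobese anti–PD-1 tumors. The 8 adipocyte markers summed to 58.1 to 116 CPM in obese anti–PD-1, 21.7 to 29.7 in obese isotype and 21.1 to 34.9 in nonobese anti–PD-1 tumors. For both lists, the obese anti–PD-1 tumors, where the members were lowest, lay above those 2 groups without overlap. No detected marker of either list was at 0 in all tumors, but several were scarce. Cd3d and Cd3g were each at 0 in 3 tumors, with at most 38 and 53 counts, and Cd8a had 1 to 86 counts per tumor. Among adipocyte markers, Retn was at 0 in 2 tumors, with at most 32 counts, while Fabp4 had 266 to 982. In nonobese isotype tumors the sums were 1.48 to 3.26 and 30.7 to 69.4 CPM. With anti–PD-1 in obese mice, 5 of 6 tested T cell markers and 8 of 8 adipocyte markers passed P as higher, against 4.3% of all genes. The 7 macrophage markers ranged from 256 to 492 CPM in obese anti–PD-1 and from 183 to 308 CPM in obese isotype tumors, which overlapped, and 4 of 7 passed P as higher. Against nonobese anti–PD-1 tumors, at 150 to 217 CPM, the obese anti–PD-1 tumors did not overlap. In that comparison 7 of 7 macrophage markers passed P as higher, with a median log2 difference of 1.28, against 5.71% of all genes. With anti–PD-1 in nonobese mice, 7 of 7 macrophage markers and 5 of 8 adipocyte markers passed P as lower, with medians of −0.97 and −1.90. Over all genes, 3.59% were lower there. In obese against nonobese isotype tumors, 5 of 8 adipocyte markers (median −1.46), 3 of 7 macrophage markers (median −0.51), 2 of 8 fibroblast markers and 1 of 6 T cell markers passed P as lower. Of 8 melanocyte markers 1 was higher and 1 lower. Over all genes, 6.17% were lower and 7.11% higher there, so counts of 1 in lists of this size are near the background. The 8 fibroblast markers summed to 778 to 3000 CPM in nonobese isotype, 449 to 722 in nonobese anti–PD-1, 321 to 1280 in obese isotype and 561 to 2040 in obese anti–PD-1 tumors. Of these, 6 passed P as lower with anti–PD-1 in nonobese mice (median −1.62), 3 as higher in obese against nonobese anti–PD-1 tumors (median 1.40) and 6 as higher for the difference between responses (median 2.41). The shares over all genes were 3.59%, 5.71% and 7.01%. The 8 skeletal muscle markers summed to 40.3 to 607 CPM in obese anti–PD-1 and 11.2 to 132 CPM in obese isotype tumors, which overlapped. Between these groups 8 of 8 had higher values with anti–PD-1 (median 2.50), and 1 passed P, against 4.3% of all genes in this direction. In obese against nonobese isotype tumors 8 of 8 had lower values (median −2.14), and 0 passed P. The 8 melanocyte markers summed to 27800 to 31900 CPM in obese anti–PD-1 and 28300 to 30900 CPM in obese isotype tumors, and 0 of 8 passed P between these 2 groups. The part of these cell types in the results was not tested.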

How the data were processed

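RNA of 12 B16-F10 tumors was sequenced as stranded poly(A) libraries (TruSeq), with single-end reads of 100 bp. The authors aligned the reads to mm10 and counted them per gene. FastQC 0.11.5, STAR 2.7.0f, HTSeq 0.9.1 and edgeR 3.28.1 are named in the submitters' processing notes. The authors deposited raw counts per gene as whole numbers without normalization, and every column was matched to a tumor by its label. The labels name each tumor's group, and nothing states shared litters or batches. Depth was 14022929 to 33871843 counts per tumor, and no molecular identifiers were used.

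Counts were filtered with filterByExpr, scaled by TMM and fitted with edgeR 4.0.16 under R 4.3.3 (glmQLFit in its earlier form, glmQLFTest), with 4 group means over 12 tumors and 8 residual degrees of freedom. The calls used an unadjusted P threshold of 0.05, without the fold change above 2 that the study's methods also required, and the Benjamini-Hochberg FDR over all 13095 genes. Standard errors were derived from the F statistic. CPM values use TMM-scaled library sizes, and correlations use log2 CPM with a prior count of 2. Exon lengths came from GENCODE and promoters and coordinates from RefSeq (GRCm38.p6, the assembly of mm10). The code was tested on simulated data.

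The members and lists were chosen with earlier results of these data known. Named genes were the 10 members, the eIF2 kinases, Atf4, Gpt, Psph and Slc3a2, up to 4 list genes with the smallest P per direction and comparison, and the 5 genes most correlated with Gpt2. The text gives a part of these, and 1 gene of a list is not reported here. Alternatives were DESeq2 1.42.0, RLE scaling, 2 other filters, the current glmQLFit, only the groups compared, a replicate block and leaving out each tumor.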

Additional observations from a re-analysis of the deposited data

Results flagged for a closer look

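The log2 difference of Gpt2 between anti–PD-1 and isotype had opposite signs in the 2 diets. Each obese anti–PD-1 tumor (29.8 to 33.3 CPM) was below the mean of the obese isotype tumors, and each nonobese anti–PD-1 tumor (38.3 to 53.3 CPM) was above the mean of the nonobese isotype tumors. The log2 response in obese minus that in nonobese tumors was −1.10. This difference was not tested, because the obese contrast was used to choose Gpt2. In nonobese mice, the anti–PD-1 tumors overlapped with the isotype tumors, at 30.7 to 42.0 CPM, and the FDR was 0.924 by edgeR. The unadjusted call there was lost when some single tumors were left out.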

How the results depend on the processing

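Of 544 comparisons of a member's value with an alternative for which a P was computed, Gpt2 averaged over treatments among them, 477 kept their sign and side of the P threshold, while 35 changed sign, 15 lost a call and 17 gained one. For a contrast of 2 groups, the refits without single tumors entered this tally and the next only for tumors of those groups. Of 336 values described without a test, 333 moved by less than the spread between replicates and 3 by more, and Phgdh ran from −0.234 to 0.105 for the difference between responses without single tumors. All 10 genes were lower with anti–PD-1 in obese tumors in all 19 alternatives. DESeq2, RLE scaling and the current glmQLFit left the count of members past P in the tested contrasts as given, except that DESeq2 called 3 of 9 in obese against nonobese anti–PD-1 tumors. That count of 2 became 0 under a filter of 10 counts in each tumor, 4 with at least 1 count in all tumors together, and 0 to 7 when single tumors were left out. The count of 1 in nonobese tumors became 0 with the filter of 10 counts and with only the groups compared, and 0 to 1 without single tumors. The counts of 0 ran to 3 over both treatments and to 1 in isotype tumors. The causes were not tested. Over all genes, leaving out single tumors gave 319 to 1167 calls with anti–PD-1 in nonobese tumors and 929 to 2199 in obese against nonobese isotype tumors.

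Values near 0 changed sign when single tumors were left out. With anti–PD-1 in nonobese tumors, the log2 ranges were −0.247 to 0.0222 for Asns, −0.126 to 0.0245 for Psat1, −0.22 to 0.11 for Phgdh, −0.18 to 0.00459 for Aldh18a1, −0.17 to 0.39 for Slc7a11, −0.11 to 0.37 for Chac1, −0.19 to 0.18 for Ddit3 and −0.0346 to 0.369 for Trib3. Averaged over treatments, obese against nonobese values ran from −0.0277 to 0.094 for Gpt2, −0.191 to 0.0373 for Ddit3 and −0.0947 to 0.05 for Sesn2. In isotype tumors they ran from −0.16 to 0.00468 for Asns, −0.00261 to 0.0947 for Psat1, −0.17 to 0.10 for Aldh18a1, −0.26 to 0.33 for Slc7a11 (−0.000419 under the filter of 10 counts), −0.34 to 0.14 for Chac1, −0.10 to 0.36 for Ddit3 and −0.13 to 0.27 for Trib3.

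Replicate numbers are shared between groups but name different mice. Of 18 pairs with the same number, 10 had a correlation of deviations over 0.1 (mean 0.133, range −0.264 to 0.563), against 13 of 36 pairs with different numbers (mean −0.0623, range −0.555 to 0.447). Of 12 tumors, 5 correlated best with one of their own number. The mean was thus higher for same-numbered pairs, while the ranges overlapped. Whether the numbers mark a shared batch cannot be told from these values. No label ties the numbers to a litter or batch, so they were not taken to pair tumors. With the replicate block, Gpt2 was at 0.33 with an FDR of 0.831 in nonobese tumors and the counts of members past P were 1, 0, 0 and 2, as without it, and 689 genes against 685 passed P in nonobese tumors. Intervals and counts cover the spread between these tumors only, and 3 tumors per group limit every comparison.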
